A study of Saccharomyces cerevisiae with 2 samples.

Results

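The 49 genes described here encode assembly factors of the large ribosomal subunit in the budding yeast Saccharomyces cerevisiae. They were chosen by systematic name, as a list of proteins known to work on the precursor of that subunit, and all 49 were found among the 6448 open reading frames of the deposited count table. The assay was BioGRO-seq, a run-on method in which polymerases already engaged on a gene extend their RNA with a biotin-labelled UTP, so that counts report transcribing polymerase rather than stored mRNA. The 2 libraries came from a strain of the Euroscarf collection that lacks XRN1 and from the wild-type strain BY4741, a haploid laboratory strain with several auxotrophic markers. The labels do not name the parent of the deletion strain or the number of clones. Cultures of both strains were harvested at an OD600 of 0.55, permeabilised with 0.5% sarkosyl, treated with RNase A and allowed to run on for 5 min at 30 °C. Xrn1 is the main cytoplasmic exonuclease for decapped mRNA, and the study asks how its loss affects transcription in general and at particular genes.

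Large subunit precursors are built in the nucleolus on a long ribosomal RNA precursor that RNA polymerase I makes. Assembly factors bind this RNA in waves, fold and cut it, hold places for ribosomal proteins, and leave as the particle moves through the nucleoplasm and the nuclear pore to the cytoplasm. In yeast most of these genes belong to the ribosome biogenesis regulon, a large set transcribed by RNA polymerase II in step with growth. Its promoters are known for the PAC box, named after polymerases A and C and bound by the repressors Dot6 and Tod6, and for RRPE, the ribosomal RNA processing element, bound by Stb3.

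The upstream regions of 7 members are shown first, since the 49 genes share these elements although they were listed by protein function. The stretches run from 250 to 51 bases before the start codon, 5′ to 3′ on the coding strand, in RefSeq R64. Capitals mark matches on either strand to the PAC core GATGAG and to the RRPE core, searched as AAAATTTT and AAATTTTT. RPF2 (chrXI:592591-592790, minus strand) and ARX1 (chrIV:657518-657717, minus strand) had the lowest ratios of the members. NOP2 (chrXIV:510290-510489, plus strand) and NOG1 (chrXVI:370728-370927, plus strand) have both elements, as most members do. RRP15 (chrXVI:818073-818272, plus strand) and REA1 (chrXII:363789-363988, minus strand) had the highest ratios. IPI1 (chrVIII:276514-276713, plus strand) is a member without a PAC core.
RPF2: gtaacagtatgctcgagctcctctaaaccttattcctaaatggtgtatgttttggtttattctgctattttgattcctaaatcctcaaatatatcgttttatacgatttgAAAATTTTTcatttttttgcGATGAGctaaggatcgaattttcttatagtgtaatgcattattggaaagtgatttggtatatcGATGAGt
ARX1: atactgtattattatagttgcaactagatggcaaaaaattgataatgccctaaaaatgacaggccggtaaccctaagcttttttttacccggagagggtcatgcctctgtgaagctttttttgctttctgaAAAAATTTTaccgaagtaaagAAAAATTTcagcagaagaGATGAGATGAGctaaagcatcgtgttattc
NOP2: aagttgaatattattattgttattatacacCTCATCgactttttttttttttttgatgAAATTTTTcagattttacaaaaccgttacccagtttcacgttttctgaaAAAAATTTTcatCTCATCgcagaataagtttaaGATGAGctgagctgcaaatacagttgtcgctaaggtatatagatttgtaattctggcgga
NOG1: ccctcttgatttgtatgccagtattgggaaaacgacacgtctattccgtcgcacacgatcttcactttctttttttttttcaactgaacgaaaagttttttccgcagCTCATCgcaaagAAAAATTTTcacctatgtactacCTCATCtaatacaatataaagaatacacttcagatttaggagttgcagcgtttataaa
RRP15: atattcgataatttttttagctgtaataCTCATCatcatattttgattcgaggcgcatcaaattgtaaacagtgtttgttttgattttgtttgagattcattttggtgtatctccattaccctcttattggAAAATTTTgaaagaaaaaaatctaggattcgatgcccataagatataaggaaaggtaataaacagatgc
REA1: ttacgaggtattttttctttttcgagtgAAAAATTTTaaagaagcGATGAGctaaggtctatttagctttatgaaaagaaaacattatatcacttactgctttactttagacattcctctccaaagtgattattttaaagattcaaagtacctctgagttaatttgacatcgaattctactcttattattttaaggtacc
IPI1: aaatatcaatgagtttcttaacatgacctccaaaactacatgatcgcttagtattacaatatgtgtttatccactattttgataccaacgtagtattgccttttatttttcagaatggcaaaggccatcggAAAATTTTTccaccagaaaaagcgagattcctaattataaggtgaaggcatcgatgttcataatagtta

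PAC and RRPE cores were present upstream of nearly all members. Within 250 bases of the start codon, 44 of the 49 members (89.8%) had a PAC core on either strand, against 866 of the 5177 tested protein-coding genes with a full window (16.7%). The longer form GCGATGAG was upstream of 29 members (59.2%) and of 4.27% of the tested genes. An RRPE core was upstream of 46 members (93.9%), against 16.2% of the tested genes. Both cores were present at 41 members (83.7%) and at 6.34% of the tested genes. The 5 members without a PAC core were IPI1, IPI3, RIX1, NSA1 and SPB1, of which the first 3 encode the Rix1 complex. The 3 members without an RRPE core were MAK5, DBP6 and RRP1. A match is a description of letters and not a bound site.

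The small subunit processome genes had the same 2 cores at a like share, whereas the ribosomal protein genes did not. Among 57 genes of the processome, the large particle that starts assembly of the small subunit, 84.2% had both cores. Among 41 further large subunit factors outside the list, 65.9% had both. Among 81 genes for large subunit ribosomal proteins, 1.23% had both. The PAC matches at the members lay mostly in the middle part of the searched window, and the nearest to the start codon began 53 bases upstream. Their first base was at a median of 121 bases upstream, with quartiles of 103 and 143 bases over 73 matches. Of the 41 members with both cores, 34 had their farthest RRPE core farther upstream than their farthest PAC core. The RRPE search gave more matches at the members than the PAC search, 108 against 73, and the order at other genes was not examined. RRP15, with the highest ratio, was one of the exceptions to this order: its PAC core began 222 bases and its RRPE core 119 bases upstream. NOP2 and NOG1 were others, with farthest PAC cores at 220 and 143 bases and farthest RRPE cores at 192 and 131 bases.

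**Figure D1:**
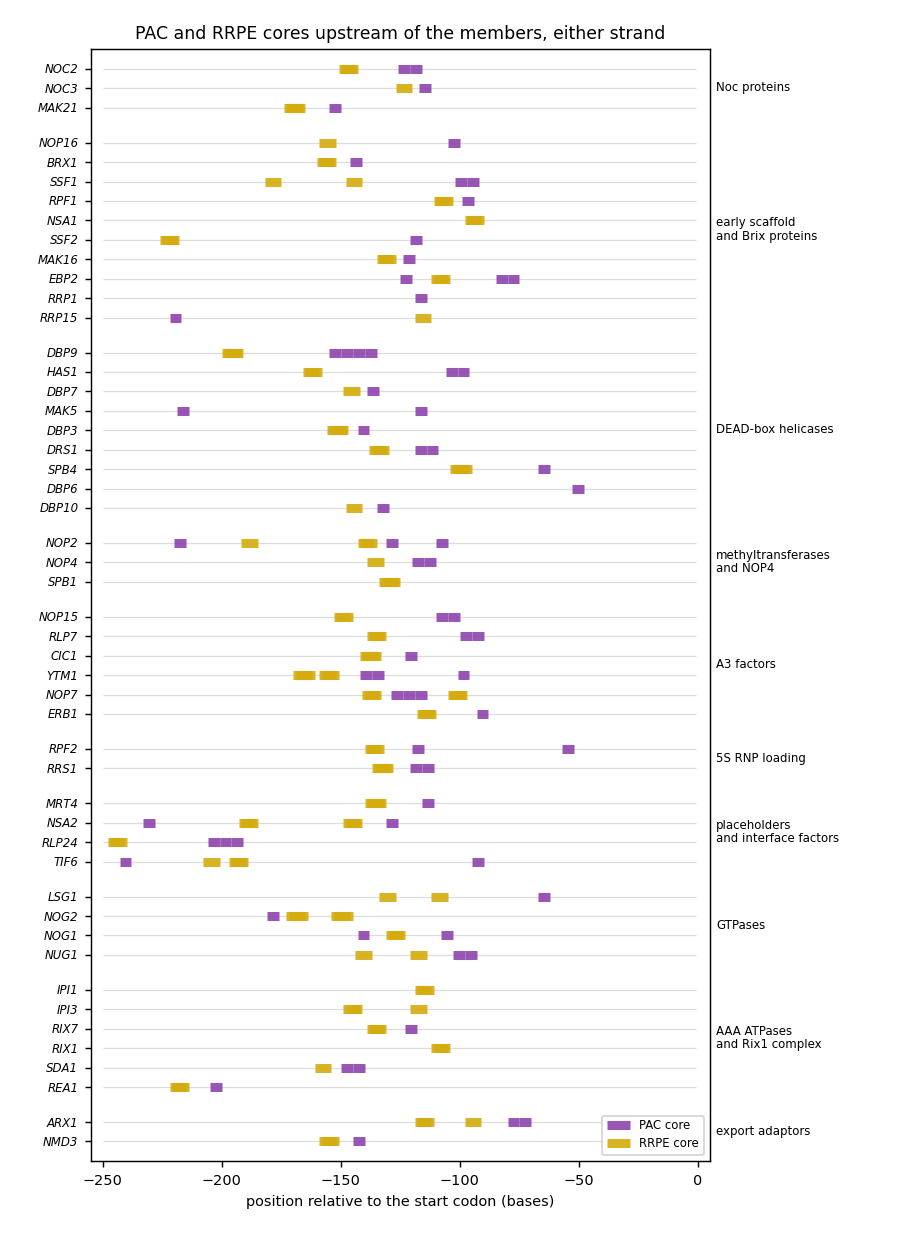
Positions of PAC and RRPE cores on either strand in the 250 bases before the start codon of each of the 49 members, grouped by role. The horizontal axis is the distance from the start codon in bases. Each bar is 1 match, and overlapping matches of the same core, PAC or RRPE, merge. Of the 73 PAC matches, 60 began between 80 and 200 bases upstream.

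Counts were high for every member. The libraries held 46396400 counts for the xrn1 deletion strain and 64934493 for the wild type, and the members had between 4676 and 193210 counts over both. The deletion was seen in the counts: XRN1 had 53 counts in the deletion strain and 41954 in the wild type. All 49 members passed the minimum of 100 counts over both libraries, as did 5198 protein-coding genes, which are called the tested genes below. Ratios are xrn1 deletion over wild type, divided by the ratio of the median tested gene. Brackets give the 95% exact conditional interval of 2 counts, which covers counting error only. With 1 library per strain the spread between cultures was not measured and no test of the strains was possible, so every difference below describes these 2 libraries. 

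Members were transcribed at moderately high levels in both strains. Levels are given as RPKM, reads scaled to gene length and to the protein-coding counts of the same library. The median member was at 93.1 RPKM in the xrn1 deletion strain, where the median tested gene was at 73.0. In the wild type the median member was at 108.2 RPKM and the median tested gene at 71.2. Above that median gene were 35 of the 49 members in the deletion strain and 42 in the wild type. The order of members was much alike in the strains, with Spearman's rho of 0.93 and Pearson's r of 0.95 on log2 levels over the 49 genes, which share a library and its depth within each strain. NOG2 was highest, with 491 RPKM in the deletion strain and 593 in the wild type. RIX1 was lowest, with 42.1 RPKM in the deletion strain and 44.6 in the wild type. The highest member was 11.7-fold above the lowest in the deletion strain and 13.3-fold in the wild type. NOG2 is the only member with an intron, and that intron holds the snoRNA gene SNR191, so its counts may include reads from the snoRNA.

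**Figure D2:**
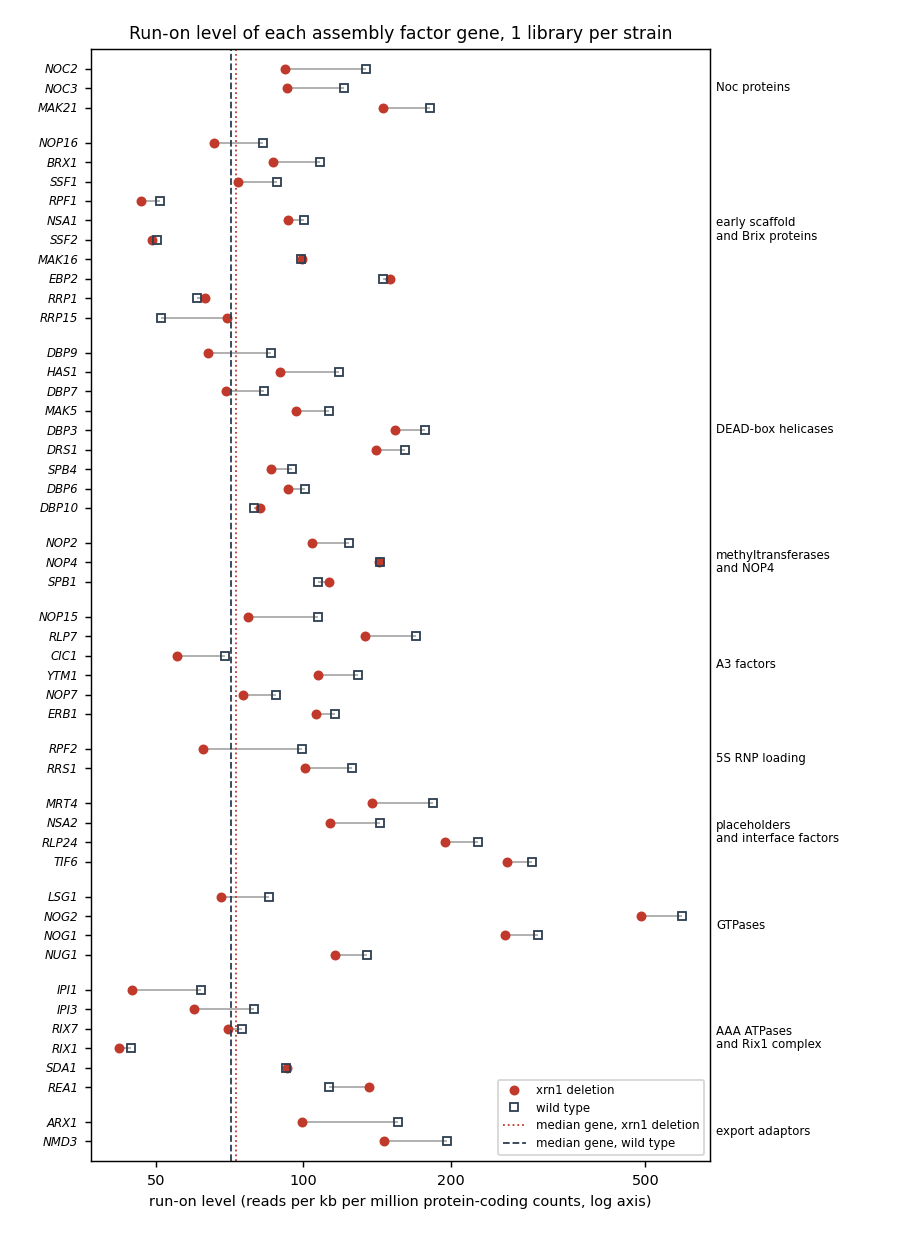
Run-on level of each member in RPKM on a log axis, in the xrn1 deletion strain (filled circles) and in the wild type (open squares), 1 library each, grouped by role. Dotted and dashed lines mark the median tested gene at 73.0 RPKM in the deletion strain and 71.2 in the wild type; in most rows the circle lies to the left of the square.

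Assembly factor genes were slightly lower in the xrn1 deletion strain relative to the median gene, and few stood above it. The median log2 ratio of the 49 members was −0.20, against 0 for all tested genes by construction. The ratio was below the median gene for 40 members (81.6%), where the background is 50%. At least 1.2-fold lower, with an interval below 1, were 19 members (38.8%), against 20.6% of the tested genes. At least 1.2-fold higher were 2 members, RRP15 and REA1 (4.08%), against 24.7% of the tested genes. No member reached a 2-fold difference, which 1.52% of the tested genes reached downward and 4.06% upward. The middle part of the members lay between −0.31 and −0.08 on the log2 scale, a width of 0.23, against 0.47 for all tested genes. The members' counting intervals lay below 1 for 39 genes, above 1 for 6 and included 1 for 4.

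**Figure D3:**
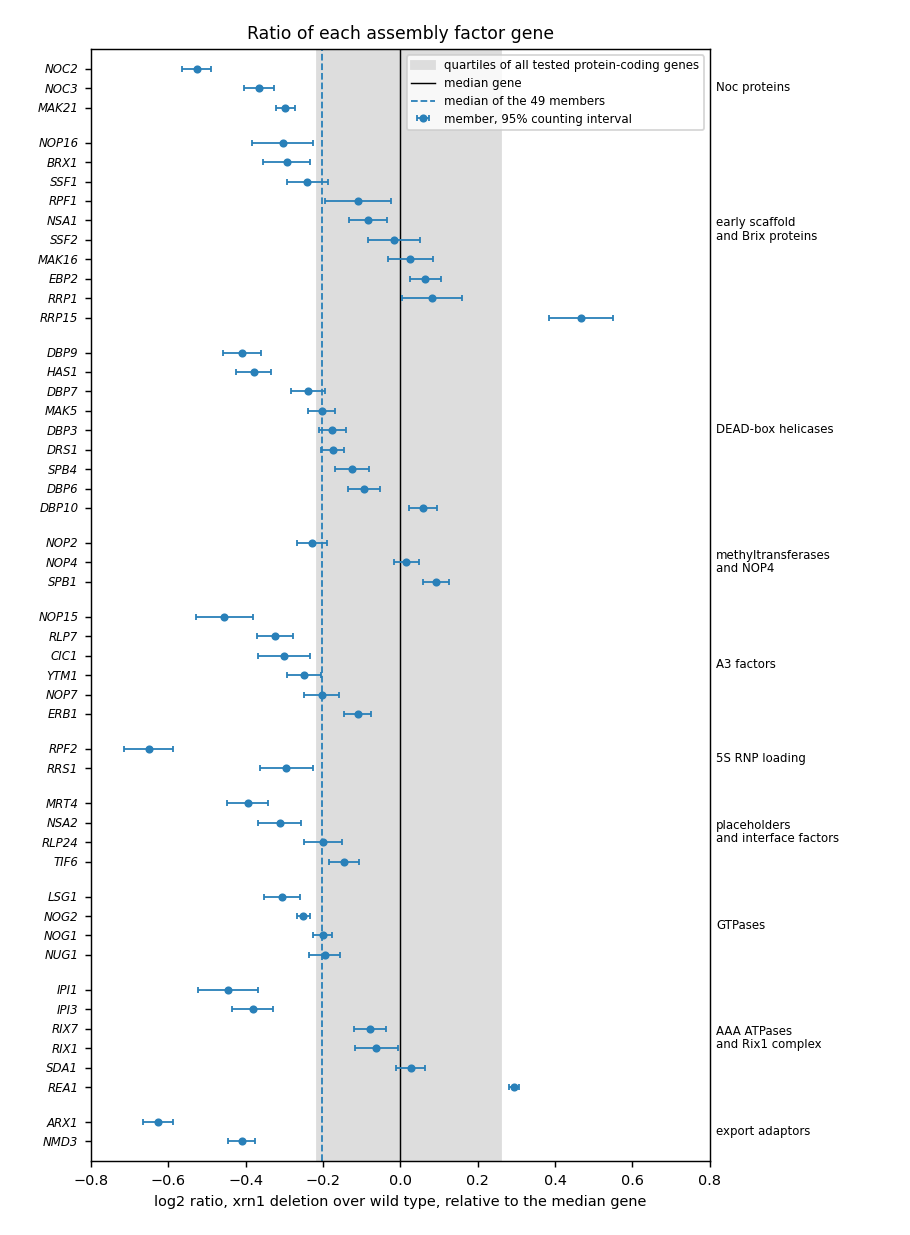
Log2 ratio of each member, xrn1 deletion over wild type relative to the median gene, with 95% counting intervals, grouped by role. The grey band spans the quartiles of the 5198 tested genes; 24 members lie below it, 23 within it and 2 above it.

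The Noc proteins, which bind as pairs to early nucleolar and later precursors, were lower in all 3 cases. All 3 genes were at least 1.2-fold lower, against 20.6% of all tested genes. NOC2 (YOR206W, chromosome XV, 727512 to 729644), shared by both pairs, had 8725 counts in the deletion strain and 17920 in the wild type, 1.44-fold lower (1.40 to 1.48). NOC3, its partner in the later pair, was 1.29-fold lower. MAK21, also called NOC1 and its partner in the early pair, had 19989 counts in the deletion strain and 35020 in the wild type and was 1.23-fold lower (1.21 to 1.25). It was at −0.24 on the log2 scale and no longer called when trends with GC content and level were removed. The levels of NOC2 and NOC3 were close in each strain, at 91.8 and 92.7 RPKM in the deletion strain and at 134 and 121 RPKM in the wild type, while MAK21 was higher, at 146 RPKM in the deletion strain and 182 in the wild type.

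The 10 genes of the early scaffold were divided, and their median log2 ratio of −0.05 was near the median gene. Rpf1, Mak16, Nsa1 and Rrp1 form one module on the early particle, and their genes all lay close to the median gene. RPF1 had a log2 ratio of −0.11, NSA1 of −0.08, MAK16 of 0.03 and RRP1 of 0.08. With trends in GC content and level removed, MAK16 turned to −0.09. Ssf1, a protein of the Brix family, binds together with Rrp15, and their genes had ratios on opposite sides of the median gene. RRP15 (YPR143W, chromosome XVI, 818323 to 819075) had 2340 counts in the deletion strain and 2413 in the wild type. After scaling this was a ratio of 1.38 (1.31 to 1.46), the highest of all members, at the 86.2 percentile of the tested genes. SSF1 had 4468 counts in the deletion strain and 7527 in the wild type, with a log2 ratio of −0.24. The level of RRP15 was 0.95 times that of SSF1 in the deletion strain and 0.58 times in the wild type.

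SSF2, the paralog of SSF1, was nearer to the median gene, but the counts of this pair are less certain. SSF2 had 2978 counts in the deletion strain and 4295 in the wild type, with a log2 ratio of −0.02, which turned to 0.05 with the same trends removed. The genes are identical at 92.1% of their 1362 positions, and 16.6% of the 30-base windows of each occur again in the genome. The sources used here do not say how reads with several matches were counted. Of the other members, 46 had no repeated window of that length and EBP2 had 0.56%. Ebp2 also binds as a pair with Brx1, another protein of the Brix family. EBP2, with the most counts per kb of the early scaffold, had 8590 counts in the deletion strain and 11714 in the wild type and a log2 ratio of 0.06 (0.02 to 0.10). BRX1 was 1.23-fold lower, but at −0.24 on the log2 scale and not called with the same trends removed. NOP16, for a further nucleolar factor, had 2043 counts in the deletion strain and 3598 in the wild type and was lowest of the early scaffold, 1.24-fold lower (1.17 to 1.30).

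The DEAD-box RNA helicases, which unwind and remodel precursor RNA and snoRNA duplexes, ranged from −0.41 to 0.06 on the log2 scale. Of the 9 genes 8 lay below the median gene, with a median log2 ratio of −0.18. At least 1.2-fold lower were 2 of them (22.2%), a share close to the 20.6% of all tested genes. DBP9 (YLR276C, chromosome XII, 695046 to 696830) had 5075 counts in the deletion strain and 9613 in the wild type, 1.33-fold lower (1.28 to 1.37). HAS1, whose product serves both subunits, had 6075 counts in the deletion strain and 11262 in the wild type and was 1.30-fold lower (1.26 to 1.34). DBP10 was highest, with 10847 counts in the deletion strain and 14853 in the wild type and a log2 ratio of 0.06 (0.02 to 0.09). The other 6 lay between −0.24 (DBP7) and −0.09 (DBP6). Among them DBP3 was the most transcribed helicase gene, at 154 RPKM in the deletion strain and 177 RPKM in the wild type. It had 10805 counts in the deletion strain and 17412 in the wild type and a log2 ratio of −0.18 (−0.21 to −0.14). MAK5 and DRS1 were at −0.20 and −0.18, and SPB4 at −0.12.

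The 2 genes for RNA methylation differed, and NOP4, grouped with them, was near the median gene. NOP2 encodes a cytosine methyltransferase of the large subunit RNA. It had 8623 counts in the deletion strain and 14413 in the wild type, with a log2 ratio of −0.23 (−0.27 to −0.19). SPB1, for a ribose methyltransferase of the same RNA, had 12686 counts in the deletion strain and 16963 in the wild type and a log2 ratio of 0.09 (0.06 to 0.13). NOP4, for an early RNA-binding protein and the most transcribed of the 3, had 13082 counts in the deletion strain and 18451 in the wild type and a log2 ratio of 0.02 (−0.02 to 0.05).

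The 6 genes known as A3 factors, needed to trim a precursor RNA at its 5′ end, were all below the median gene. Their median log2 ratio was −0.28, and 3 of the 6 were at least 1.2-fold lower, against 20.6% of all tested genes. NOP15 (YNL110C, chromosome XIV, 417826 to 418488), for an RNA-binding protein, had 2277 counts in the deletion strain and 4452 in the wild type, 1.37-fold lower (1.30 to 1.44). RLP7, a relative of the ribosomal protein Rpl7 and the most transcribed of the 6, had 5787 counts in the deletion strain and 10330 in the wild type and was 1.25-fold lower (1.21 to 1.29). CIC1 was 1.23-fold lower. When trends with GC content and level were removed, RLP7 was at −0.22 and CIC1 at −0.20 on the log2 scale and neither was called, whereas YTM1, at −0.32, was. Nop7, Erb1 and Ytm1 form a stable trimer, and their genes lay at −0.20, −0.11 and −0.25 on the log2 scale. ERB1, the highest of the 6, had 11465 counts in the deletion strain and 17649 in the wild type and a log2 interval of −0.14 to −0.08, which did not overlap those of NOP7 and YTM1.

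The genes for loading the 5S RNA particle were both lower, and one was the lowest of all members. Both were at least 1.2-fold lower, against 20.6% of all tested genes. Rpf2 and Rrs1 together bring the 5S RNA with its ribosomal proteins to the early particle. RPF2 (YKR081C, chromosome XI, 591506 to 592540) had 2882 counts in the deletion strain and 6452 in the wild type, 1.57-fold lower (1.502 to 1.641), at the 3.89 percentile of the tested genes. RRS1 (YOR294W, chromosome XV, 868340 to 868951) had 2756 counts in the deletion strain and 4820 in the wild type, 1.23-fold lower (1.17 to 1.29). These intervals did not overlap. The level of RPF2 was 0.62 times that of RRS1 in the deletion strain and 0.79 times in the wild type.

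Factors that occupy the joining face and hold places for ribosomal proteins were below the median gene in all 4 cases, with a median log2 ratio of −0.26. Of all tested genes, 50% are below the median gene. At least 1.2-fold lower were 2 of the 4 (50%), against 20.6% of all tested genes. MRT4, whose product holds the place of the stalk protein P0, had 4380 counts in the deletion strain and 8212 in the wild type, 1.32-fold lower (1.27 to 1.36). NSA2 was 1.24-fold lower (1.19 to 1.29). RLP24, whose product holds the place of Rpl24, had 5209 counts in the deletion strain and 8530 in the wild type and a log2 ratio of −0.20. TIF6, for the anti-association factor that keeps the subunits apart, was the most transcribed of the 4. It had 8593 counts in the deletion strain and 13549 in the wild type, or 261 RPKM in the deletion strain and 293 RPKM in the wild type, and a log2 ratio of −0.15 (−0.18 to −0.11).

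The 4 GTPase genes lay between −0.31 and −0.20 on the log2 scale. With trends in GC content and level removed, LSG1 was at −0.33 and NOG2 at −0.11. LSG1, for the cytoplasmic GTPase that helps release Nmd3, had 5824 counts in the deletion strain and 10264 in the wild type, 1.24-fold lower (1.197 to 1.277). It was the only one of the 4 at least 1.2-fold lower (25%), a share near the 20.6% of all tested genes. NOG2 had 43602 counts in the deletion strain and 73999 in the wild type and a log2 ratio of −0.25 (−0.27 to −0.23), with the limit that SNR191 lies in its intron. NOG1 had 22362 counts in the deletion strain and 36642 in the wild type and a log2 ratio of −0.20. NUG1 had 8101 counts in the deletion strain and 13225 in the wild type and a log2 ratio of −0.20 (−0.24 to −0.16). The nuclear GTPases Nog1, Nog2 and Nug1 act before export.

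Genes of the AAA ATPases and the Rix1 complex differed widely. Rea1 is a giant ATPase related to dynein that pulls Ytm1 and other factors off the particle. REA1 (YLR106C, chromosome XII, 349006 to 363738), at 14733 bp the longest tested gene, had 89313 counts in the deletion strain and 103897 in the wild type. Its scaled ratio was 1.23 (1.21 to 1.24), the second of the 2 members called higher. It held 19.2% of all member counts in the deletion strain and 14.3% in the wild type. The ratio of the members' summed counts was 0.92 with REA1 and 0.86 without it. Among the other 68 tested genes of at least 5000 bp, the median log2 ratio was −0.01 with quartiles of −0.11 and 0.11, and 3 were above REA1.

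The subunits of the Rix1 complex, which joins the particle with Rea1, did not share a ratio. IPI1 had 2003 counts in the deletion strain and 3888 in the wild type, 1.36-fold lower (1.29 to 1.44), and IPI3 was 1.30-fold lower (1.26 to 1.35). RIX1 had 4296 counts in the deletion strain and 6395 in the wild type and a log2 ratio of −0.06, and its interval overlapped neither. With trends in GC content and level removed, RIX1 turned to 0.06. RIX1 was at 0.94 times the level of IPI1 in the deletion strain and at 0.72 times in the wild type. RIX7, for the ATPase that removes Nsa1, was at −0.08, and SDA1, for a nucleoplasmic factor, at 0.03, which turned to −0.0044 with those trends removed.

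The export adaptors were lower by the largest median of the 10 role groups, −0.52 over 2 genes. Arx1 binds near the tunnel exit and helps the particle through the pore. ARX1 (YDR101C, chromosome IV, 655686 to 657467) had 7910 counts in the deletion strain and 17413 in the wild type, 1.54-fold lower (1.503 to 1.586), at the 4.25 percentile of the tested genes. Nmd3 carries the export signal that Crm1 recognises. NMD3 (YHR170W, chromosome VIII, 443828 to 445384) had 10127 counts in the deletion strain and 19180 in the wild type, 1.33-fold lower (1.30 to 1.36). CRM1 itself, which serves many other cargoes, had a log2 ratio of −0.10. Other genes for export of the particle are outside the list and were not all lower. MEX67, MTR2 and ECM1 were at 0.06, 0.14 and 0.12, and BUD20 was at −0.28.

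Other genes of the same pathway were set beside the members. Of 41 further large subunit factors, 29 (70.7%) had a ratio under that of the median gene, where the background is 50%. The median log2 ratio of the 41 was −0.11. At least 1.2-fold lower were 14 (34.1%) and higher 1 (2.44%), against 20.6% and 24.7% of all tested genes. RRB1, for the chaperone of Rpl3, was lowest at −0.65, with 8385 counts in the deletion strain and 18765 in the wild type. CGR1, for a nucleolar processing factor, was highest at 0.73, with 3690 counts in the deletion strain and 3165 in the wild type. RRP14, whose product binds with Ssf1 and Rrp15, was at 0.21. The 57 genes of the small subunit processome had a median of −0.18, with 40.4% at least 1.2-fold lower and 1.75% higher. The 81 large subunit ribosomal protein genes, many of them near-identical pairs, had a median of −0.21, with 37.0% lower and 2.47% higher. The 7 subunits that are specific to RNA polymerase I had a median of −0.12. All the lists lay below the median gene, and differences between them were not tested.

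**Figure D4:**
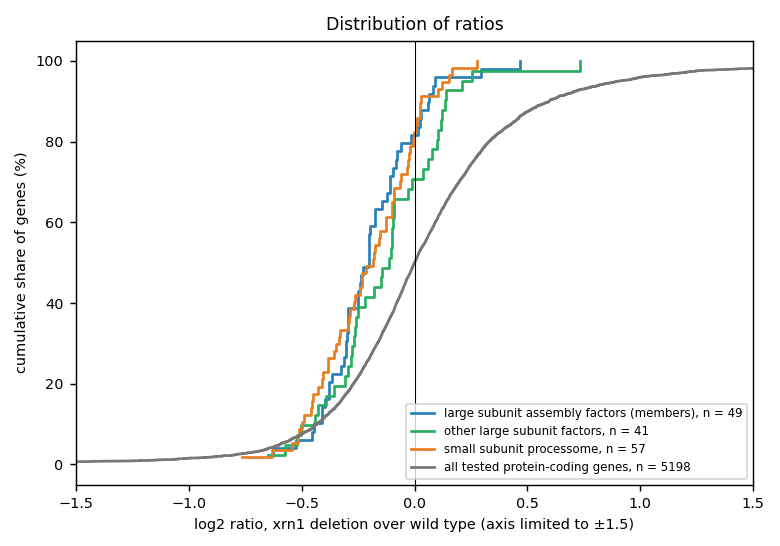
Cumulative share of genes in percent against the log2 ratio, xrn1 deletion over wild type, for the 49 members, 41 other large subunit factors, 57 small subunit processome genes and the 5198 tested genes. At a log2 ratio of 0 the members' curve has reached 81.6% and that of all tested genes 50%.

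Genes outside the assembly list that carry both promoter cores were lower as well, by less. The 41 members with both cores had a median log2 ratio of −0.24. The 287 other tested genes with both had a median of −0.12, and 198 of them were below the median gene. Other genes with PAC alone (535) had a median of −0.0037, those with RRPE alone (508) one of −0.06, and those with neither core (3798) one of 0.02. The members with PAC alone (3) had a median of −0.09 and those with RRPE alone (5) one of −0.08, and no member lacked both. Genes with both cores include the other ribosome assembly genes, and their level differed too: those other 287 had a median of 97.2 RPKM in the wild type, against 67.9 RPKM for genes with neither core. The part of level in this difference was not tested.

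**Figure D5:**
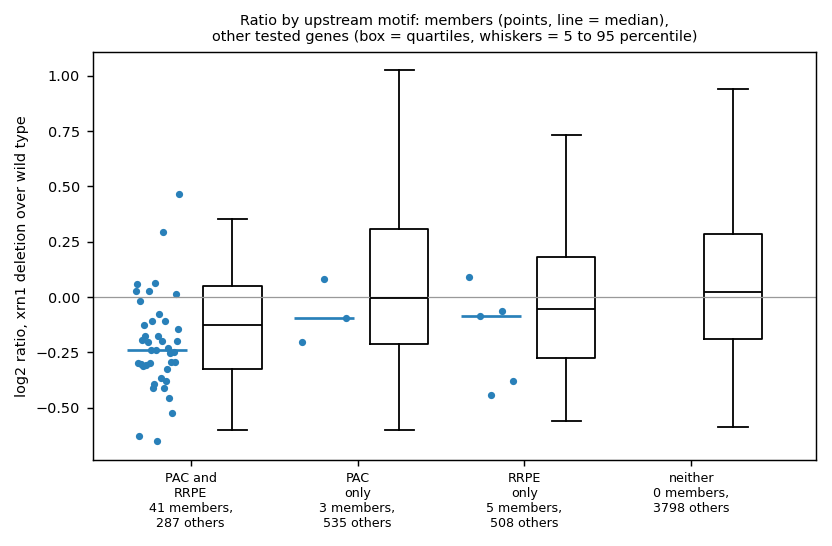
Log2 ratio, xrn1 deletion over wild type, by the presence of PAC and RRPE cores upstream, for members (points, with a line at the median) and for other tested genes (boxes at the quartiles, whiskers at the 5 and 95 percentiles). Members with both cores have a median of −0.24 and other genes with both −0.12.

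Across the members, rank correlations of the ratio with 4 gene properties were between −0.27 and 0.26. The share of T in the coding strand, where the labelled UTP is built in, gave a Spearman's rho of −0.27 and a Pearson's r of −0.34, against a rho of −0.14 over the tested genes. Spearman's rho with gene length was 0.26 over the 49 members and 0.22 without REA1, while over 5177 tested genes it was −0.15. With GC content it was 0.25 for the members and 0.24 for the tested genes, and with the level in the wild type it was −0.24 for the members and −0.10 for the tested genes. The wild-type level is also the lower part of the ratio, so the last value is partly built in. The median log2 ratio was −0.30 for the 16 shortest members, of 600 to 1131 bp, and −0.14 for the 16 longest, of 1944 to 14733 bp. These are descriptions across genes of the same 2 libraries, and genes are not independent replicates.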

How the data were processed

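The authors deposited a single table of raw counts, 1 column for each library. The builds R64 and sacCer3 and the tools TopHat2 2.1.1, featureCounts, Subread, Trimmomatic and FastQC are named in the submitters' processing notes. Settings, use of strand and treatment of reads with several matches are not given in the sources used here. A count of 0 was deposited for 25 rows in the deletion strain and for 0 rows in the wild type. Of 6448 rows, 5831 matched a locus tag of the RefSeq R64 annotation, all on the same chromosome; symbols, positions, lengths with introns, and sequences came from there. Overlaps with dubious reading frames were not analysed.

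Among protein-coding genes with 100 counts or more over both libraries, the median raw ratio was 0.701, and all ratios were divided by it, so these ratios cannot show a shift that all genes share. Genes were called lower or higher at 1.2-fold or 2-fold with a 95% interval that excluded 1. Every member may be named; in each role group those with the highest and lowest ratio and the most counts per kb are given with both counts and an interval. The members, lists, role groups and thresholds were chosen with earlier results of these data known. Of 58 processome symbols 57 were found. The calculation was run on simulated counts that held counting error only, so this run says nothing on variation between cultures. Alternatives were 4 other scalings, other count minimums, 5 added counts, overlapping genes left out and removal of lowess trends (span 0.3). Scaling factors came from DESeq2 1.42.0 and edgeR 4.0.16 in R 4.3.3; the rest was computed in Python 3.11.15 with scipy 1.17.1, statsmodels 0.14.6, pandas 2.3.3 and numpy 2.4.6.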

Additional observations from a re-analysis of the deposited data

How the results depend on the processing

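No paired analysis was possible because there was 1 library per strain, and none could be left out. The members' median log2 ratio was −0.23 when scaled by the total count of all rows and −0.23 by the total of protein-coding rows, which shifted the median tested gene by −0.03 and −0.02. It was −0.21 with edgeR and DESeq2 scaling factors, and −0.20 with a minimum of 500 counts or none, 5 added counts, overlapping genes left out and trends with GC content and count per kb removed. Under these 9 alternatives 39 or 40 members were below the median tested gene. At least 1.2-fold lower were 17 to 23 members, against 19.6% to 22.8% of the tested genes in the same settings. At least 1.2-fold higher were 2 members, against 22.7% to 24.6% of the tested genes, and 0 members were called at 2-fold. A scaling shifts all genes alike and cannot change the count below the median gene. With the trends removed, 15 of the 19 lower members kept the call, MAK21, BRX1, CIC1 and RLP7 lost it, DBP7 and YTM1 gained it, and RIX1, SSF2, MAK16 and SDA1, none of them called, changed sign; the cause was not tested. In that setting 16 of the 49 ratios moved beyond their counting interval. Counting error is small at these depths, while variation from culture to culture is unknown.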

Other observations

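Several members lie next to another ribosome assembly gene on the chromosome. In 7 neighbouring pairs of annotated protein-coding genes, a member adjoins a gene of the small subunit processome or a further large subunit factor. NSA2 and LCP5 diverge from a shared region of 301 bases, with log2 ratios of −0.31 and −0.12. SSF1 and RRP3 diverge from 297 bases, with −0.24 and 0.10. NMD3 follows DBP8 in tandem, and both were low, at −0.41 and −0.76. RIX1 and UTP9 in tandem were at −0.06 and −0.23, and NOG2 and ESF2 at −0.25 and 0.01. The convergent pair RIX7 and GRC3 was at −0.08 and −0.14. The other convergent pair, RRP15 and NOC4, had ratios of opposite sign, 0.47 and −0.38, with 689 bases between the genes. Whether 7 such pairs are more than other gene lists of this size would have was not tested, nor was whether neighbours are more alike than other genes.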
